A study of Homo sapiens with 2 samples.

Results

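The 10 genes studied here encode proteins of neutrophil granules, or mark the cells that make them, and were chosen by name. They were MPO, ELANE, PRTN3, AZU1, CTSG, LYZ, MS4A3, RNASE2, DEFA4 and LTF, out of 20033 protein-coding genes in GENCODE release 44. Each gene body was extended by 30 kb on either side and searched for LDB1 peaks. The windows held 8 of the 11046 deposited peaks, and 6 of the 10 genes had at least 1.

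To locate LDB1 on chromatin in acute myeloid leukemia cells, the study performed CUT&Tag on NB4, an established acute promyelocytic leukemia cell line. In this assay an antibody guides a transposase, which cuts and tags DNA close to the target protein. The series held 2 libraries without replicates, an LDB1 antibody on cells labelled LDB1 overexpression and IgG on cells labelled untreated, so antibody and treatment cannot be told apart. The peak list of the LDB1 library gave positions and lengths with no height, so depth is unknown, no test was made, and the cell type could not be checked by expression.

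Neutrophil granules form in an order. Azurophil granules fill at the promyelocyte stage with myeloperoxidase, serine proteases and defensins, and specific granules follow later with lactoferrin. LDB1 does not touch DNA itself. It binds the scaffold protein LMO2, which in turn contacts DNA-binding factors such as TAL1 and GATA factors, and the complex is best known from red cell and stem cell genes.

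Peaks lay near MS4A3, LYZ, AZU1, PRTN3, ELANE and LTF, and the windows of MPO, CTSG, RNASE2 and DEFA4 held none. The share of 60% (Wilson 95% interval 31.3 to 83.2%, counting error alone) stands beside 36.7% of all protein-coding genes treated in the same way. It was 35.8% for the 12808 genes with window lengths in the range of these genes, 60950 bp for RNASE2 to 109590 bp for LTF. The genes are not independent, since AZU1, PRTN3 and ELANE adjoin on chromosome 19 and share peaks. Extending the body by 10 kb also left 6 genes with a peak (25.1% of all protein-coding genes), and 30 kb around the canonical TSS alone left 5 (27.0%), without LTF. Counted by place, 4 of 8 separate loci held a peak. The windows together covered 598 kb. Their density was 13.4 peaks per Mb, compared with 3.76 per Mb over the assembled chromosomes, and 4 of the 8 peaks came from the window of LTF. Over the chromosomes of these genes it ran from 3.24 per Mb on chromosome 14 to 9.57 on chromosome 19. These values include stretches without genes, so they are no matched background for windows placed on genes.

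**Figure D1:**
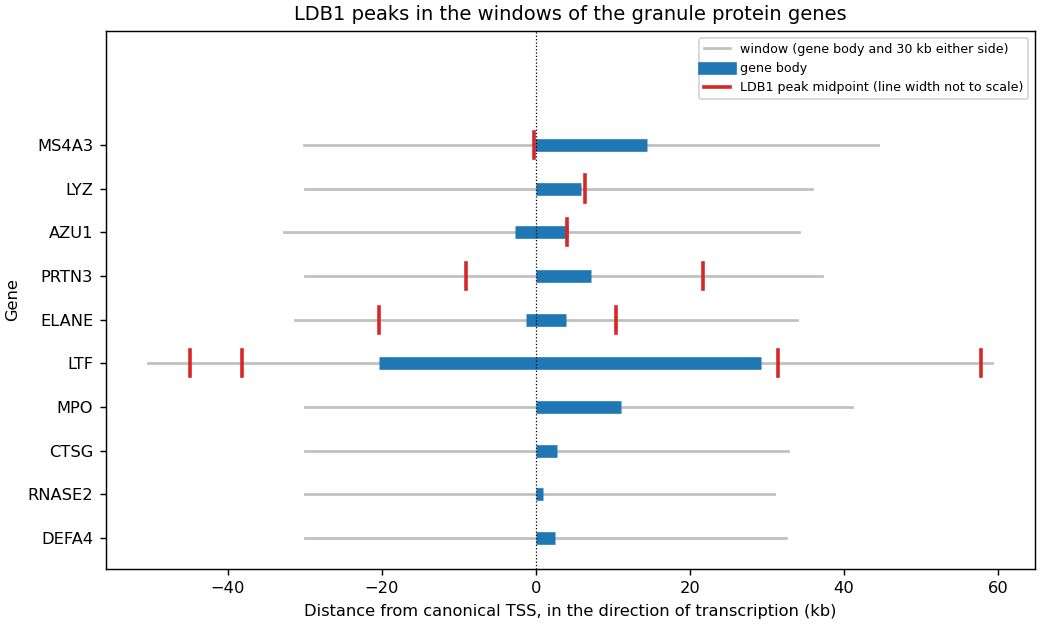
Peaks in the window of each gene, with the distance from the canonical transcription start site (TSS) in kb along the direction of transcription. Blue bars are gene bodies, grey lines the windows and red ticks peak midpoints. LTF has 4 peaks, all outside its body, and MPO, CTSG, RNASE2 and DEFA4 have none.

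The sequences of 5 peaks are shown, namely those that reach or lie within 3 kb of MS4A3, LYZ and LTF and those in the window of LTF that hold the composite element of the LDB1 complex. In this element the letters CTG, part of an E-box, stand 7 or 8 bases ahead of a GATA motif. Each is the central 200 bases of a peak, hg38, plus strand. Capitals mark matches to the motifs searched, which are spelled out further on. The peak at AZU1 also reaches its gene, but its central 200 bases held none of these motifs and are not shown.

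MS4A3, start of the gene, chr11:60056385-60056584: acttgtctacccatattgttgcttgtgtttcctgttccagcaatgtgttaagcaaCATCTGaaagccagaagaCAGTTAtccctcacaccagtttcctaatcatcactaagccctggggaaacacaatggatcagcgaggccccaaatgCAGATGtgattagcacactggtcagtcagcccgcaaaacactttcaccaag

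LYZ, past the end of the gene, chr12:69354640-69354839: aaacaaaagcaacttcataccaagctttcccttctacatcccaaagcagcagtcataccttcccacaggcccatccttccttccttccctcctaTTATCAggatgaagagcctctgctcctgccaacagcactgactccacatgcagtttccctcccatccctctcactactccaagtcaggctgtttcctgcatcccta

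LTF, past the end of the gene, chr3:46433308-46433507: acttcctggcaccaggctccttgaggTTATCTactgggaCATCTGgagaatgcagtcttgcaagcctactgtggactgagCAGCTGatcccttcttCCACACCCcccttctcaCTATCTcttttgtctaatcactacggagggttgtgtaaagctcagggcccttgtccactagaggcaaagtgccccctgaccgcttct

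LTF, upstream, chr3:46502958-46503157: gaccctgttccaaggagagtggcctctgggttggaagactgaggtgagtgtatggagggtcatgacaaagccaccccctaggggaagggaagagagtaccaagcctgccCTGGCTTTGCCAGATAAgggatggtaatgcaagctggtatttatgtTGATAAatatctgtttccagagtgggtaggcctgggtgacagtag

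LTF, beside CCRL2, chr3:46407001-46407200: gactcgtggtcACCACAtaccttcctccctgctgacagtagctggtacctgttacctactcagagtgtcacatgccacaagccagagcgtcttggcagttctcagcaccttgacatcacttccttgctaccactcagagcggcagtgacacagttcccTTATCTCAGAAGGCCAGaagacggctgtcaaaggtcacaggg

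In the MS4A3 sequence the capitals are a TAL1 E-box, a MYB motif and another TAL1 E-box. In the LYZ sequence they are a single GATA motif. The LTF sequence past the gene's end reads GATA, E-box, E-box, KLF and GATA. The upstream LTF sequence holds the composite and then a separate GATA motif. The sequence beside CCRL2 holds a RUNX motif and then the composite, which lies on the minus strand. In the printed plus strand its GATA part therefore comes ahead of the E-box remnant.

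The distance to the nearest peak was then measured for each gene, from the TSS of its canonical transcript to the peak midpoint. The median over the 10 genes was 21.0 kb, compared with 89.7 kb over 19970 protein-coding genes on the chromosomes with peaks. The genes ran from 180 bp for MS4A3 to 509 kb for DEFA4. For 5 of them, MS4A3, AZU1, LYZ, PRTN3 and ELANE, the distance was below the lower quartile of all genes, 26.9 kb. Of these, AZU1, PRTN3 and ELANE adjoin and share peaks, so their distances and the median over the 10 genes do not rest on separate loci. The median over the protein-coding genes of their chromosome, 19, was 40.8 kb. LTF, MPO, CTSG and RNASE2 lay between that quartile and the upper one, 259 kb, and DEFA4 lay beyond it.

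**Figure D2:**
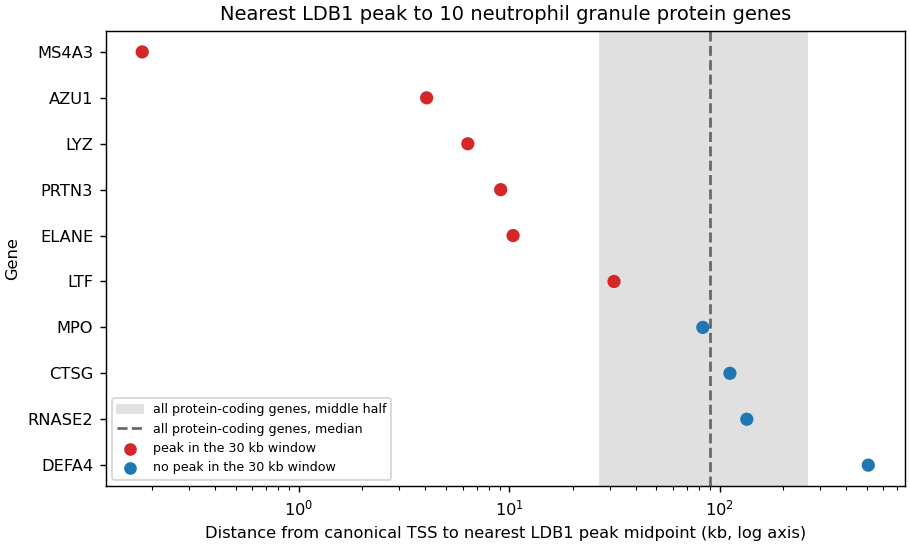
Distance in kb (log axis) from the canonical TSS of each gene to the midpoint of the nearest LDB1 peak. The grey band spans the quartiles of all protein-coding genes, 26.9 to 259 kb, and the dashed line is their median, 89.7 kb. Red points, with a peak in the 30 kb window, run from 0.180 kb for MS4A3 to 31.5 kb for LTF, and blue points from 83.3 kb for MPO to 509 kb for DEFA4.

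MS4A3 (ENSG00000149516.14, chromosome 11, 60056587 to 60071115, plus strand) had the closest peak. It encodes a membrane protein of granulocyte and monocyte progenitors and is not itself a granule protein. The peak, 60056347 to 60056624, was 278 bp long and covered the first 38 bp of the annotated gene. Its midpoint lay 180 bp upstream of the canonical TSS, and 1.15% of all protein-coding genes had a nearer peak. A midpoint within 3 kb of the canonical TSS was found for 6.19% of protein-coding genes, and MS4A3 was the 1 gene of the 10 to have it. The peak covered 210 bases of the RefSeq promoter of MS4A3. Of the other 5 genes with a promoter in that table (LTF, RNASE2, CTSG, AZU1 and PRTN3), none had a promoter in a peak. Over all 35116 promoters of the table, 2.32% overlapped a peak.

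LYZ (ENSG00000090382.7, chromosome 12, 69348381 to 69354234, plus strand) encodes lysozyme, which cuts the bacterial cell wall and is stored in more than a single granule type. Its peak, 69354602 to 69354879, was also 278 bp long and began 368 bp past the end of the gene, 6359 bp from the TSS. No annotated gene overlapped the peak. The TSS of the neighbouring gene YEATS4, a reader of acetylated histones, was nearer to it, at 5003 bp. No peak lay closer to the start of LYZ.

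The serine protease cluster on chromosome 19 holds 3 genes of azurophil granules in a row. AZU1 (ENSG00000172232.10, 825097 to 832018) encodes azurocidin, an antimicrobial protein that has lost protease activity. PRTN3 (ENSG00000196415.10, 840999 to 848175) encodes proteinase 3, and ELANE (ENSG00000197561.7, 851014 to 856247) encodes neutrophil elastase. All are on the plus strand. A peak of 397 bp, 831690 to 832086, covered the end of AZU1. Of its length, 303 bp lay in exon 5, the last exon of the canonical transcript, and 159 bp of these were coding. The midpoint was 4051 bp downstream of the AZU1 TSS and 9111 bp upstream of the TSS of PRTN3.

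The other peak of the cluster, 862605 to 862865 (261 bp), lay beyond ELANE in intron 4 of CFD, which encodes complement factor D, a protease of the alternative complement pathway. It began 6358 bp past the end of ELANE and was the nearest peak to the ELANE TSS, at 10.4 kb. It was 3071 bp from the TSS of CFD. No deposited peak lay between these, so neither PRTN3 nor ELANE had a peak in its body or at its start. Chromosome 19 is dense in peaks. There 50.9% of 1476 protein-coding genes had a peak in the same window, and 12.3% had a nearer peak than AZU1, 21.5% than PRTN3 and 23.4% than ELANE. Over all chromosomes these values were 7.35%, 12.4% and 13.5%.

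LTF (ENSG00000012223.13, chromosome 3, 46435645 to 46485234, minus strand) had the most peaks, 4. It encodes lactoferrin, the iron-binding protein of specific granules. Its annotated body is 49590 bp long, the longest of the 10, and the canonical transcript starts inside it at 46464905. At least 4 peaks in the window were found for 6.17% of protein-coding genes of any length. The nearest peak, 46433211 to 46433606 (396 bp), lay 2039 bp past the end of the gene and 31.5 kb from the TSS. The peak from 46406736 to 46407467 (732 bp) lay farther in the same direction. Its midpoint was 158 bp from the TSS of CCRL2, a receptor that binds the chemoattractant chemerin, and 57804 bp from that of LTF. Upstream of LTF a peak of 393 bp, 46502862 to 46503254, was 38153 bp from the TSS, and a peak of 727 bp, 46509445 to 46510171, was 44903 bp from it. For the upstream pair RTP3, a receptor transporter gene, had the nearest coding TSS, at 5082 and 11832 bp.

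Thus 6 of the 8 peaks lay outside the bodies of the 10 genes. MS4A3 and AZU1 each had the nearest protein-coding TSS for 1 of the peaks. The remaining 6 were nearer to YEATS4, CFD, CCRL2 or RTP3, and a peak list does not say which gene a peak acts on.

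The genes without a peak in the window were MPO, CTSG, RNASE2 and DEFA4. MPO (ENSG00000005381.9, chromosome 17, 58269855 to 58280935, minus strand) encodes myeloperoxidase, which makes hypochlorous acid and is the textbook marker of the myeloid lineage. Its nearest peak, 58363642 to 58364799 (1158 bp), lay 83.3 kb upstream, in intron 3 of RNF43, and 48.1% of protein-coding genes had a nearer peak. Among those of chromosome 17 the share was 61.9%. CTSG (ENSG00000100448.4, chromosome 14, 24573518 to 24576250) encodes cathepsin G, a further serine protease of azurophil granules. Its nearest peak was 112 kb upstream, 258 bp long and between genes, 54129 bp from the TSS of GZMB, the granzyme B gene of the same protease cluster.

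RNASE2 (ENSG00000169385.3, chromosome 14, 20955487 to 20956436) encodes eosinophil-derived neurotoxin, a ribonuclease found mainly in eosinophil granules. Its nearest peak was 135 kb upstream and 266 bp long, with RNASE1 as the nearest coding gene by TSS at 17868 bp. DEFA4 (ENSG00000164821.5, chromosome 8, 6935820 to 6938306) encodes an alpha-defensin, a small peptide that damages microbial membranes. It lay 509 kb from the nearest peak, which was 1023 bp long and in intron 3 of MCPH1, and 86.4% of protein-coding genes had a nearer peak. Among those of chromosome 8 the share was 77.6%. Set against the 30 kb limit, the gene just inside was PRTN3, with 8913 bp between gene and nearest peak, and the gene just outside was MPO, with 82707 bp.

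Peak length was compared next, since no height was given. The 8 peaks had lengths of 261 to 732 bp and a median of 394.5 bp, compared with a median of 451 bp over all peaks. Of the 8, 6 were shorter than that median. The peaks of MS4A3 and LYZ, equal in length, were longer than 16.1% of all peaks; the peak in CFD was the shortest of the 8. The peak at AZU1 was longer than 41.1%. The 732 bp and 727 bp peaks in the LTF window were longer than 79.5% and 79.2%. When the list was restricted to the 5523 longest peaks, LTF was the 1 gene of the 10 that still had a peak in its window, compared with 25.3% of protein-coding genes. The central 31 bases of all 8 peaks occurred once in hg38. With the peaks that met this condition, the same 6 genes had a peak, compared with 34.4% of protein-coding genes.

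**Figure D3:**
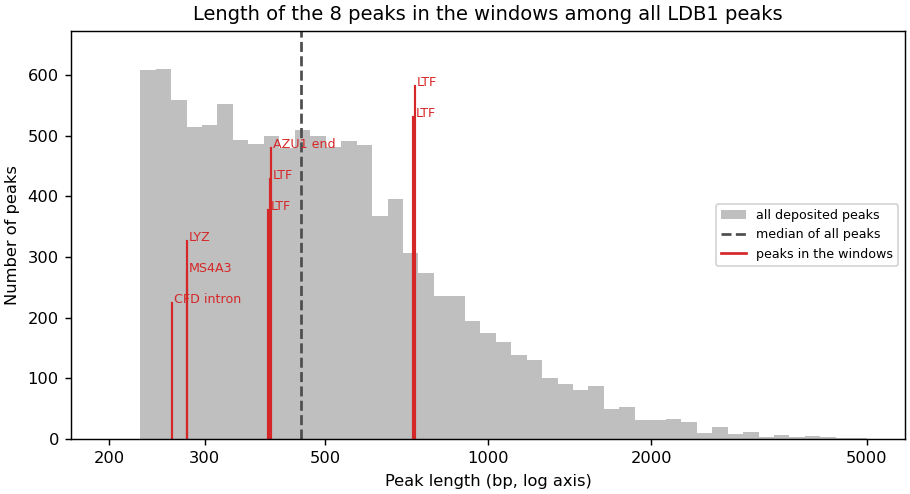
Number of all 11046 deposited peaks by length in bp (log axis, grey bars), with the 8 peaks in the windows as red lines whose heights only separate the labels. The dashed line is the median of all peaks, 451 bp. A pair of LTF peaks, 727 and 732 bp, lies to its right and the other 6 to its left.

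To explore the sequence under the peaks, motifs of partner factors were searched on both strands in the central 200 bp and in the whole peak. The GATA motif was AGATAA or AGATAG or TGATAA or TGATAG, and the TAL1 E-box was CAGCTG or CAGATG. The GATA motif was found in 4 of the 8 central windows, where all peaks had it in 47.1%. Of these 4 peaks, 3 were in the LTF window and the other was the peak of LYZ. In the whole peak it was found in 6 of 8, compared with 71.4% of all peaks, and the peaks at AZU1 and in CFD were those without it. The peak past the end of LTF held 4 GATA motifs, the most of the 8. Of the 16 flanking windows, 1000 bp to either side, 2 had the motif, where the flanks of all peaks had it in 27.6%.

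The composite was found in 2 of the 8 peaks, both in the LTF window, where all peaks had it in 11.1%. In the peak upstream of LTF it read CTGGCTTTGCCAGATAA from 46503067, and the match began 9 bp from the peak midpoint. In the peak beside CCRL2 it read TTATCTCAGAAGGCCAG on the plus strand, from 46407159, and began 58 bp from the midpoint. Both have 8 bases between the parts. None of the 16 flanks held it, where the flanks of all peaks had it in 1.63%. None of the 5 peaks within 10 kb of a gene body held it either, including those of MS4A3, LYZ and AZU1.

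A pair of central windows, those at MS4A3 and past the end of LTF, held the TAL1 E-box with 2 matches each. This made 2 of 8, where all peaks had it in 33.8%. In the MS4A3 peak 1 GATA motif also lay 125 bp from the midpoint, beyond the central window. The flanks had the E-box in 8 of 16, where the flanks of all peaks had it in 22.2%. In the whole peak the E-box was found in 5 of 8, compared with 60.0% of all peaks.

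**Figure D4:**
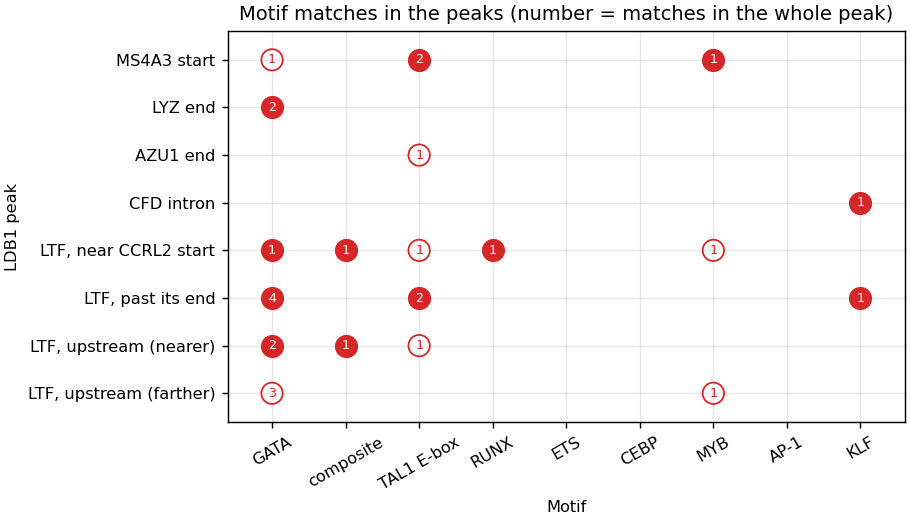
Motif matches in each of the 8 peaks (rows) for 9 motifs (columns). The number is the count of matches in the whole peak, and a filled circle means that at least 1 match lies in the central 200 bp. The composite appears in 2 peaks of the LTF window, and the ETS, CEBP and AP-1 columns are empty. The CEBP letters searched do not cover the palindromic CEBP site.

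Motifs of factors known for granule genes were searched in the same way, with CEBP (TTGCNNCAA or TTGCNNTAA or TTACNNCAA or TTACNNTAA), ETS (CCGGAAGT or GAGGAAGT, the latter a form bound by PU.1), MYB (CAACTG or TAACTG or CAACGG or TAACGG) and RUNX (TGTGGT or TGCGGT). CEBP and ETS had no match in any of the 8 peaks, also when the whole peak was searched. All peaks had them in 4.36% and 2.0% of central windows and in 11.6% and 5.33% of whole peaks, shares too low for 8 peaks to show a difference. MYB was found in 1 central window, at MS4A3, where all peaks had it in 20.0%. RUNX was found in 1, beside CCRL2, where all peaks had it in 20.5%. AP-1 (TGACTCA or TGAGTCA) was found in none, where all peaks had it in 9.48%. KLF (CCACACCC or CCACGCCC) was found in 2, in CFD and past the end of LTF, where all peaks had it in 6.18%.

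The peak at AZU1 stood out by base composition. Its central 200 bp held 73% G and C, more than 98.7% of all peaks, and none of the 9 motifs. The peak in CFD held 62.5%, more than 89.5% of all peaks. The remaining 6 lay between 46.5% and 54%, near the median of all peaks, 51.5%. A central window with no motif was found for 2 of the 8 peaks and for 19.3% of all peaks. The other one was the 727 bp peak upstream of LTF, which held 3 GATA motifs outside its central window.

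The promoters of 6 genes were in the RefSeq table (GRCh38.p14, from 250 bases before to 50 after a start), and LTF had 3 starts. Entries for MPO, ELANE, LYZ and DEFA4 were missing. The GATA motif was found at MS4A3 and at none of the other genes, where 25.0% of all promoters had it. The composite was found at none, where 1.34% of all promoters had it. MYB was found at MS4A3, RNASE2, CTSG, AZU1 and PRTN3 and at none of the 3 starts of LTF. This made 5 of 8 promoters, where 25.7% of all promoters had it. The ETS motif was found at PRTN3, where 6.64% of all promoters had it. The CEBP letters, which leave out the palindromic site, were found at MS4A3, where 6.62% of all promoters had them. A TAL1 E-box was found at MS4A3, CTSG, RNASE2 and a start of LTF, where 29.8% of all promoters had it. RUNX was found at the other 2 starts of LTF (19.6% of all promoters), KLF at AZU1 (8.05%) and AP-1 at none (4.95%). These matches are letters in a window and do not show binding.

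Finally, the other genes of neutrophil granules and secretory vesicles were searched. Of 35 such genes, 11 (31.4%) had a peak in the 30 kb window, close to the 36.7% of all protein-coding genes. By class the counts were 2 of 10 azurophil genes, 2 of 13 specific granule genes, 3 of 6 gelatinase granule genes and 4 of 6 secretory vesicle genes. In the azurophil class the genes with a peak were PRSS57 and SERPINB1. PRSS57 encodes a serine protease and SERPINB1 an inhibitor of elastase. The central sequence of the PRSS57 peak was found 2 times in hg38, and without such peaks SERPINB1 was the 1 azurophil gene left. DEFA1, DEFA1B and DEFA3, near-identical defensin genes beside DEFA4, had none. Reads shared between such copies may not align uniquely, and whether this bears on the missing peaks was not tested. In the specific class CHIT1 and HP had a peak, while CAMP, LCN2, OLFM4, CEACAM8 and MMP8 were among those without.

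Among these 35 genes, 2 had a peak midpoint within 3 kb of the canonical TSS, where 6.19% of all protein-coding genes did. SERPINB1 had a peak of 502 bp in intron 1, 219 bp from the TSS, with a TAL1 E-box. ADAM8, a membrane protease of gelatinase granules, had a peak of 628 bp, 1840 bp upstream of the TSS, with a GATA motif. The median distance over the 35 genes was 70.7 kb, compared with 89.7 kb over all protein-coding genes.

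For comparison, 2 of 6 genes of the phagocyte NADPH oxidase (NCF1 and RAC2) had a peak in the window, near the 36.7% of all protein-coding genes. All 8 of 8 genes of heme biosynthesis had one. CYBA and CYBB, which encode the membrane subunits of the oxidase, were in both this list and the wider granule list and had no peak. Within 3 kb of the gene body the counts were 4 of 10 for the granule protein genes, 1 of 6 for the oxidase genes and 8 of 8 for the heme enzymes, where all protein-coding genes had 19.7%. The median distance from the TSS to the nearest peak was 50.2 kb for the oxidase genes and 0.651 kb for the heme enzymes, compared with 21.0 kb for the granule protein genes. Of the latter, AZU1, PRTN3 and ELANE share peaks. The peak of NCF1 had a central sequence found 1122 times in hg38. These differences between lists were not tested, since the lists are short, were chosen by name and come from 1 library.

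**Figure D5:**
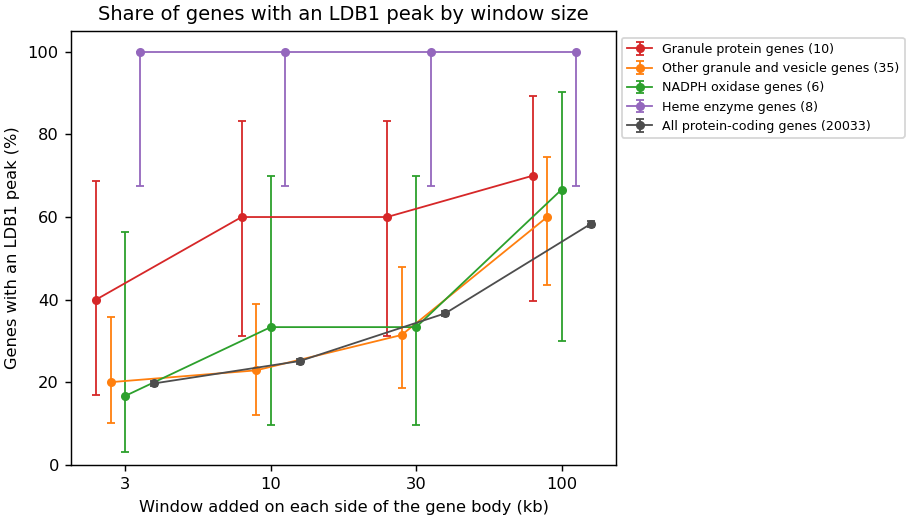
Percent of genes with an LDB1 peak (points) when the gene body is extended by 3, 10, 30 or 100 kb on each side, with Wilson 95% intervals that cover counting error alone. The granule protein genes go from 40% to 70%, the other granule genes from 20% to 60%, the oxidase genes from 16.7% to 66.7% and all protein-coding genes from 19.7% to 58.3%, while the heme enzymes stay at 100%.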

How the data were processed

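NB4 cells gave 1 CUT&Tag library for LDB1 and 1 for IgG. Per the labels and the study's methods, the authors aligned reads to hg38 with Bowtie2 2.4.4 and called peaks with MACS3 3.0 on paired-end fragments at a q-value limit of 0.01, with signal scaled to read number. Whether IgG served as the control and which reads were filtered is not given in the sources used here. The effect of either on the number of peaks was not tested. The list deposited by the authors gave peak positions and peak lengths in bp, counted from 1, with no score or summit. Depth is unknown, and intervals cover counting error within this library. The IgG library was not analysed here.

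Genes came from GENCODE release 44, with the TSS of the Ensembl canonical transcript. A gene had a peak when a peak overlapped its body extended by 30 kb. Peak midpoints stood in for summits and length for height. Motifs were matched as consensus letters in the central 200 bp, with flanks 1000 bp away. Where a match count is given, overlapping matches were counted. Both strands of hg38 were searched for copies of the central 31 bases.

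The 10 genes, the other lists and the motifs were chosen with earlier results of these data known. The genes and peaks named followed a rule: all 10 genes with their nearest peaks and those within 10 kb, the longest or composite-bearing peaks of each window, and other granule genes with a peak within 3 kb of the TSS. Further genes are named as those counted or as neighbours of a peak, after their values were seen. In simulated data 400 of 400 genes with a placed peak and 1000 of 1000 written composites were found. Tables were joined with pandas 2.3.3 under Python 3.11.15, intervals came from SciPy 1.17.1, and numpy 2.4.6 and matplotlib 3.10.9 served for arrays and plots.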

Additional observations from a re-analysis of the deposited data

How the results depend on the processing

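No paired analysis was possible because there was 1 library per group. Over 17 results, 61 alternative values stayed within 1.5 times the value given above (counts, lengths, distances) or within its counting interval (motif shares), and 20 did not. Most of the latter follow from a wider or narrower window or a shorter list by construction, and other causes were not tested. Of the 10 genes, 1 had a peak when the 5523 longest peaks were used. Counting only peaks whose nearest protein-coding TSS was that of 1 of the 10 genes, an alternative chosen after seeing the data, left 2. The median distance was 9771.5 bp (9.77 kb) with the nearest TSS of any annotated transcript and 89717.5 bp (89.7 kb) with the 5523 longest peaks, where that of all protein-coding genes was 75.8 and 156 kb. The windows held 4 peaks at 3 kb, 5 at 10 kb and 20 at 100 kb around the gene body, and 2 of the longest peaks.

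Among the other granule genes 7 had a peak at 3 kb and 21 at 100 kb. Among the oxidase genes 1 had one at 3 kb, 4 at 100 kb and 1 when peaks with repeated central sequence were left out. Among all protein-coding genes 3947 had one at 3 kb and 11687 at 100 kb, and 4583 of those with window lengths in the range of the granule genes' at 30 kb. The composite share was 0% within 10 kb, the TAL1 E-box share 62.5% in whole peaks (60.0% of all peaks), and the RUNX share 0% both in the central 100 bp and within 10 kb. With 8 peaks, 1 peak moves a share by 12.5 points.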

Other observations

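With 100 kb around the gene body, 7 of the 10 genes had a peak, compared with 58.3% of all protein-coding genes, and MPO was the gene added. CTSG, RNASE2 and DEFA4 still had none. The 20 peaks in these wider windows included the same 2 with a composite, 8 with a GATA motif in the central 200 bp, 8 with a TAL1 E-box, 5 with MYB, 3 with RUNX, 3 with KLF and 2 with AP-1. The shares over all peaks were 47.1%, 33.8%, 20.0%, 20.5%, 6.18% and 9.48% in the same order, and 11.1% for the composite.

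The peak nearest to DEFA4, in intron 3 of MCPH1, held 4 GATA motifs and a composite with 7 bases between its parts, which began 47 bp from the midpoint. It was also the nearest peak to DEFA1, DEFA1B and DEFA3, at 551262 to 589467 bp. Among the wider set of granule and vesicle genes, CR1 had 11 peaks in its 30 kb window, and CHIT1 and FPR1 had 10 each. Windows with at least 10 peaks were found for 0.514% of protein-coding genes of any length. Window length and neighbouring genes were not taken into account for these counts. CR1 encodes a complement receptor and FPR1 the receptor for bacterial formyl peptides. The nearest peak to the TSS of CR1 lay in intron 4 and that of FPR1 outside the gene, with a composite. For CHIT1 the nearest peak was 36732 bp upstream of the canonical TSS. The central sequence of the peak nearest to CR1 was found 2 times in hg38 and that of CHIT1 3 times. These genes were named after their values were seen.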
